A study of Mus musculus with 18 samples.

Results

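The response of wild type (WT) macrophages to interferon gamma (IFNg) and lipopolysaccharide (LPS) was followed gene by gene, by comparing 3 libraries of cells given both agents with 3 libraries of cells left without them. The comparison takes in the 15627 of 16474 genes in the deposited table whose value reached 10 in 3 or more libraries, and it uses 6 of the study's 18 libraries. Both groups held marrow-derived macrophages of C57BL/6 mice aged 8 weeks, differentiated over 6 days with M-CSF at 50 ng/ml. M-CSF is the cytokine that drives marrow cells to become macrophages. Control cells were then kept for 24 h in 20 ng/ml M-CSF alone. Stimulated cells received the same M-CSF for 24 h together with 100 ng/ml LPS and with IFNg, whose dose the labels write as 20 with the unit misspelt. All macrophages of both groups were therefore exposed to M-CSF throughout. The study holds the same stimuli in p110g-/- macrophages, labelled as knockouts of the catalytic subunit of phosphoinositide 3-kinase gamma, and an interleukin 4 arm, which is not described here. Nothing in the labels ties a library to its own animal or culture. The p-values therefore reflect how libraries vary, which may be technical variation.

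LPS, a component of the outer membrane of Gram-negative bacteria, is sensed by Toll-like receptor 4 and activates NF-kB, MAP kinases and the induction of type I interferon. IFNg, made mainly by T and NK cells, signals through JAK kinases. Together they are the classical stimulus for a microbicidal and inflammatory macrophage state, with nitric oxide production, antigen presentation and a shift in metabolism.

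A value below is a gene's normalised signal, a read count divided by 1 factor per library, and values of 3 libraries are always given in the order of their numbers 1, 2 and 3. Fold changes are on the log2(signal + 1) scale, IFNg/LPS minus M-CSF, with their standard error (SE). Adjusted p-values are from limma with Benjamini-Hochberg adjustment over all 15627 genes, and a gene is called higher or lower where that p is under 0.05. Libraries held 43.1 to 59.5 M reads with M-CSF and 40.6 to 69.6 M with IFNg/LPS. With no read in any of 3 libraries of a group, up to 3 reads over the group remain possible, a mean signal of 0.890 with M-CSF and 1.26 with IFNg/LPS. Such floors cover counting error only.

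The library numbered 1 stood apart in both groups. The mean squared difference between libraries, in units of the variance that read counting gives, was 55.2 to 102 for pairs with number 1 and 15.9 to 17.2 for numbers 2 and 3. In M-CSF, number 1 was the highest library for 16 of 17 cytosolic nucleic acid sensors and 23 of 24 genes of the ISG15, TRIM and Schlafen families, against 37.6% of all genes. In IFNg/LPS, number 1 was the lowest library for 57 of 57 ribosomal protein genes and 37 of 37 respiratory complex I genes, against 43.1% of all genes. Macrophage markers summed to a signal of 900598 to 1064137 in M-CSF and 675931 to 737915 in IFNg/LPS, with none of the 11 in the table at 0. Neutrophil markers summed to 12538 to 40883 in M-CSF and 13338 to 18206 in IFNg/LPS, where 2 of 12 were at 0, and dendritic cell markers to 494 to 511 and 1732 to 5086, where 1 of 9 was at 0. T and NK cell markers summed to 1484 to 2713 and 406 to 446, B cell markers to 164 to 432 and 56.9 to 102, and fibroblast markers to 889 to 4110.5 and 796 to 888. The macrophage, neutrophil, dendritic cell and fibroblast sums hold members of both directions. Among fibroblast markers, Dcn and Lum were called higher and Col1a1, Col1a2, Col3a1 and Postn lower. Among dendritic cell markers, Ccr7, Xcr1, Clec9a and Itgae were called higher and Cd209a, Siglech, Flt3 and Batf3 lower. The mean of Ccr7 went from 124 to 1979. Among neutrophil markers, Csf3r, Cxcr2 and Ly6g were called higher and Mpo, Ngp, Ltf, Elane, Retnlg, Camp and S100a9 lower. The mean of Csf3r went from 6354 to 12020. Lyz2 held the largest part of the macrophage sum. Cd4 held the largest part of the T and NK cell sum, with means of 1818 in M-CSF and 364 in IFNg/LPS. Klrb1c was also called lower, Cd3d and Cd8a were not called, and Gzma had no signal in either group. The part of these cell types in the results was not tested. In bulk RNA, fewer cells of a type and less RNA per cell cannot be told apart.

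The response moved most of the transcriptome and redistributed a large share of its reads. The test called 5676 genes higher (36.3% of those tested) and 5862 lower (37.5%), or 73.8% in either direction. Counts of calls in the gene lists below are to be set against these shares. At least 4-fold changes were called for 1325 genes higher (8.48%) and 1187 lower (7.6%). The median over all genes was -0.01. The 3 values of a group did not overlap those of the other group for 5897 genes (37.7%) that were higher and 6050 (38.7%) that were lower.

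On the deposited scaling, large increases outnumbered large decreases. At least 16-fold changes were called for 381 genes higher and 201 lower, at least 64-fold changes for 154 and 26, at least 256-fold changes for 60 and 1, and at least 1024-fold changes for 12 and 0. The genes called at least 4-fold higher held 3.41 to 4.47% of a library's reads in M-CSF and 29.5 to 34.7% in IFNg/LPS. Those called at least 4-fold lower held 8.09 to 9.23% and 0.676 to 1.05%. Fewer genes covered 50% of the reads with IFNg/LPS, 282 to 323 against 493 to 539 in M-CSF. The 10 most abundant genes of a library held 11.96 to 12.67% of its reads with IFNg/LPS and 12.5 to 13.8% with M-CSF. The shares of the 4-fold genes rest on the genes that the test chose and are a description. When values were scaled by each library's total reads instead, an alternative added after the data were seen, the median of all genes moved by -0.50, 3147 genes were called higher and 8923 lower, the 4-fold counts turned to 995 higher and 1938 lower, and 26.1% rather than 49.2% of calls were higher. Directions below are relative to the deposited scaling, and where total-read scaling turns a list its values are given beside it.

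**Figure D1:**
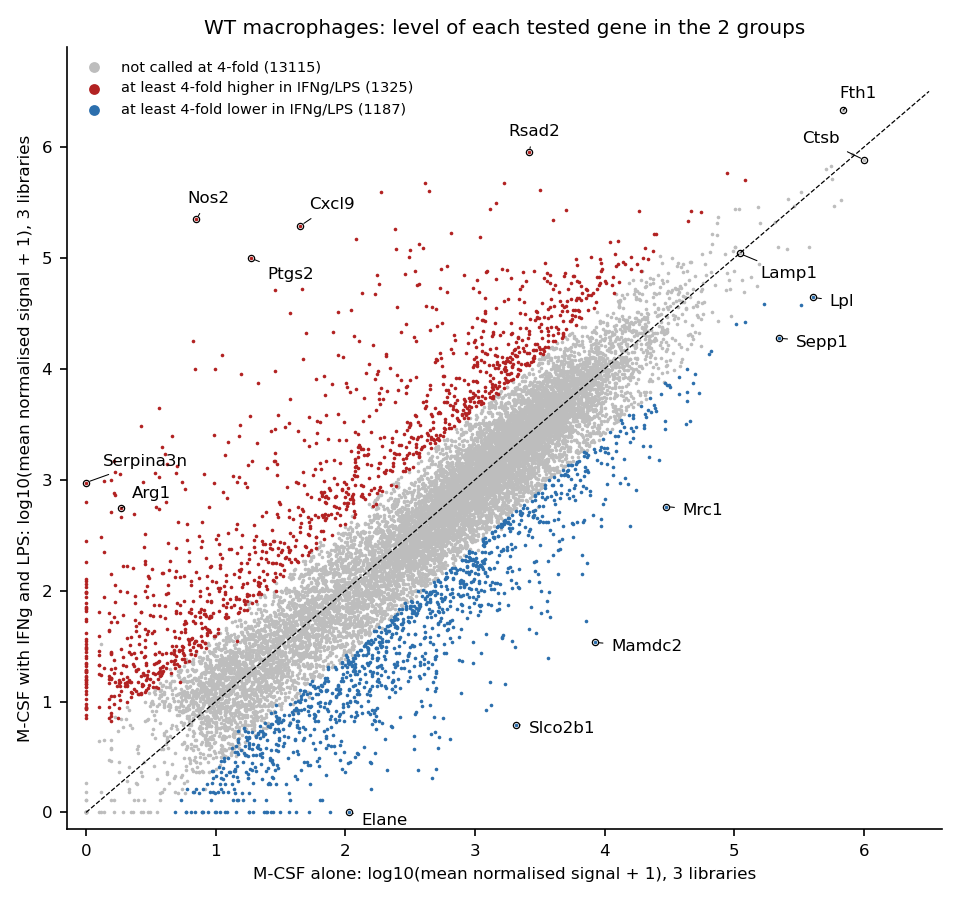
Mean normalised signal of each of the 15627 tested genes in WT macrophages with M-CSF alone (x axis) and with IFNg and LPS (y axis), both as log10(signal + 1) over 3 libraries, with red and blue points for the 1325 genes called at least 4-fold higher and the 1187 called at least 4-fold lower. Nos2, Ptgs2 and Cxcl9 lie far above the dashed line of equal levels, and Slco2b1 and Mamdc2 far below it.

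The scatter of mean levels shows the largest increases far above the line of equal levels. Ptgs2, which encodes the inducible cyclooxygenase of prostaglandin synthesis, had a signal of 21.5, 14 and 17.3 with M-CSF alone and 166134, 63567 and 68548 with IFNg/LPS, a log2 fold change of 12.26 ± 0.51 (SE; limma adjusted p = 9.13e-12). Cxcl11, a chemokine ligand of CXCR3, had 6.1, 4.4 and 6.5 with M-CSF alone and 18166, 17245 and 17437 with IFNg/LPS, a change of 11.38 ± 0.29 (adjusted p = 9.26e-14). All 3 stimulated libraries lay above all 3 control libraries by orders of magnitude for both genes. Groups that do not overlap were a condition for the 12 largest changes per direction. Upp1, the uridine phosphorylase of pyrimidine salvage, rose by 10.56 ± 0.45 from 9.2, 5.2 and 3.2 to 13246, 7682 and 8943. Clic5, a chloride intracellular channel family member, rose by 10.25 ± 0.44, and Saa1, an acute-phase serum amyloid A gene, by 10.19 ± 0.91. The other genes among the 12 largest increases were Nos2, Cxcl9, Irg1, Serpina3g, Serpina3f, Gbp4 and Ccl5, with changes of 14.97, 12.08, 11.06, 10.93, 10.28, 10.37 and 10.35.

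Among the 12 largest decreases were genes of transporters, receptors and mitosis. Slco2b1, an organic anion transporter, had 1195, 2553 and 2462 with M-CSF alone and 4.4, 6.5 and 4.7 with IFNg/LPS, a change of -8.32 ± 0.30 (limma adjusted p = 2.09e-12). Slc9a9, an endosomal sodium and proton exchanger, fell from 6702, 7234 and 7472 to 29.5, 81.2 and 47.4 (-7.17 ± 0.35), and Abca9, an ABC transporter, from 3098, 4309 and 3562 to 23.6, 29.9 and 17.4 (-7.23 ± 0.34). The groups did not overlap for any of the 3, which was a condition for being among the 12. Among receptors, Gpr34, a receptor for lysophosphatidylserine, changed by -6.91 ± 0.51 and Emr4, an adhesion receptor related to F4/80, by -7.08 ± 0.64. Mamdc2, a MAM domain gene, changed by -7.85 ± 0.50, Smpd3, the neutral sphingomyelinase, by -6.92 ± 0.44, and Aspm and Fam64a, both mitotic genes, by -6.72 ± 0.29 and -7.36 ± 0.45. Galnt9, Nptx1 and Gm5086 completed the 12, at -7.79, -7.41 and -7.32, the last at -7.97 with libraries numbered 2 and 3 alone. Without M-CSF library number 1, which was the lowest control for each, the change was -8.47 for Mamdc2, -7.55 for Smpd3 and -8.02 for Nptx1. Nptx1 also moved to -6.78 without M-CSF number 2, -8.31 without IFNg/LPS number 2 and -6.63 without IFNg/LPS number 3.

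**Figure D2:**
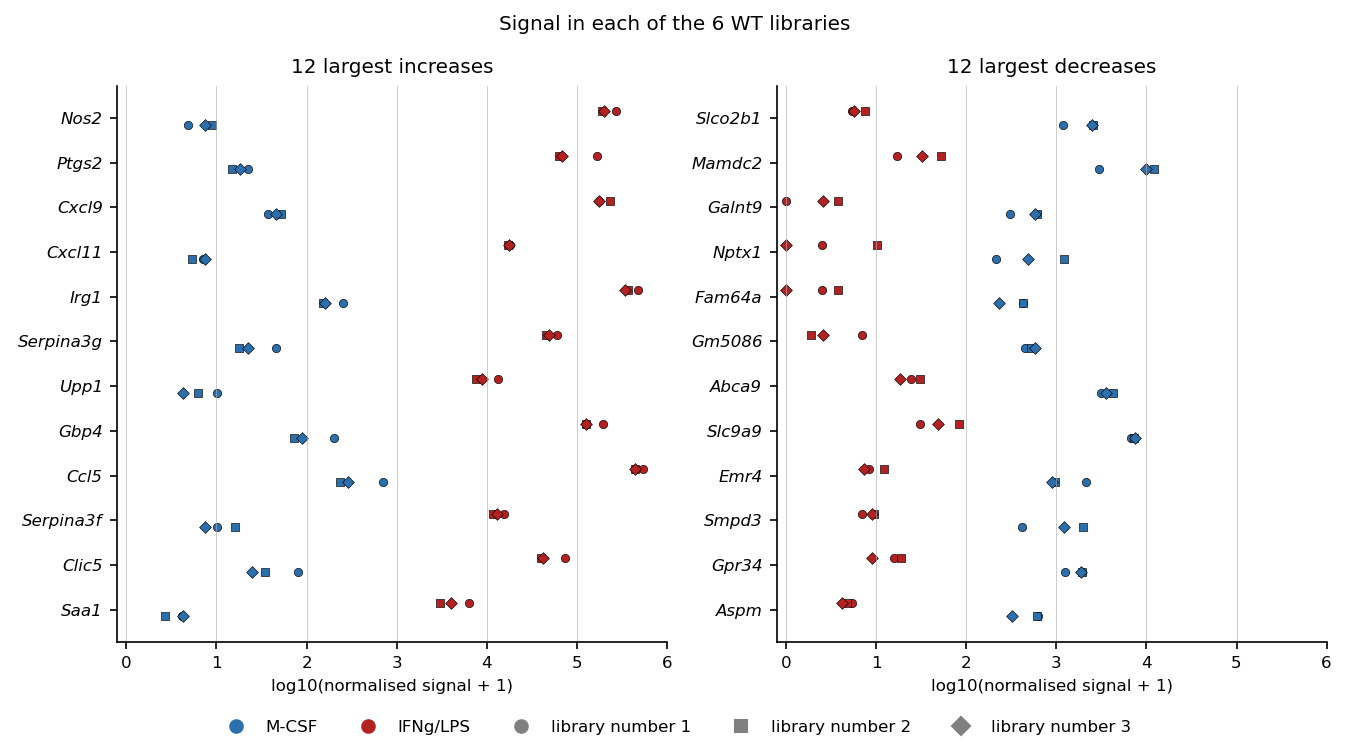
Normalised signal, as log10(signal + 1), in each of the 6 WT libraries for the 12 genes with the largest increase (left) and the 12 with the largest decrease (right), blue for M-CSF and red for IFNg/LPS, with 1 symbol per library number. The 3 libraries of a group lie apart from the other 3 for all 24 genes, which the choice of these genes required.

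Some transcripts passed between near absence and abundance. Counting genes with at most 3 reads over a group and a mean signal of at least 10 in the other group gave 114 genes that appeared with IFNg/LPS, 49 of them without any read in M-CSF, and 74 that all but disappeared, 17 of them without any read in IFNg/LPS. Serpina3n, a secreted serine protease inhibitor, had no read in 3 M-CSF libraries and 1163, 821 and 837 with IFNg/LPS, at least 1056-fold higher than the floor of 3 reads over the group. Gm15056 likewise had none in M-CSF and 942, 361 and 594 after stimulation, at least 710.3-fold higher. Il23r, a receptor chain for interleukin 23, had 0.8, 1.7 and 0 with M-CSF and 1568, 849 and 987 with IFNg/LPS. Arg1, the arginase that competes with nitric oxide synthase for arginine, had 0, 2.6 and 0 and then 551, 593 and 518, and its M-CSF reads all came from library number 2. The signal at Mir147 went from 0.8, 0 and 1.1 to 942, 729 and 579.6, but this microRNA lies within the span of the gene AA467197, so reads of the 2 cannot be told apart here. U90926, Serpina3i, LOC630751, Gm11435 and Mgarp followed the same course, with stimulated values of 1175, 1408 and 1808 for U90926 and 1181, 465 and 512 for Mgarp.

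Transcripts that vanished came from several functions. Chp2, a calcineurin-like calcium-binding protein, had 64.5, 89.1 and 71.4 with M-CSF and no read with IFNg/LPS, at least 59.5-fold lower. Elane, the neutrophil elastase gene, had 273, 22.7 and 20.6 and then no read after stimulation. Its M-CSF level was by far the highest in library number 1. Sardh, the mitochondrial sarcosine dehydrogenase, went from 81.4, 234 and 152 to 0, 1.9 and 0, and Shisa9 from 521, 411 and 466 to 1.5, 0 and 1.6. Depdc1b and Sapcd2, linked to cell division, went from 97.6, 127 and 69.3 to 1.5, 0.9 and 1.6 and from 61.5, 57.7 and 39 to 1.5, 0.9 and 0. Slc39a12, a zinc transporter, fell from 50.7, 77.8 and 60.6 to 0, 0.9 and 0.

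The genes whose share of reads changed most were abundant in at least 1 group, and a share depends on transcript length as well as on molecules. Fth1, the heavy chain of the iron store ferritin, went from 1.5 to 3.27% of reads (1.64 ± 0.14, limma adjusted p = 4.71e-08). Rsad2, the antiviral protein viperin, went from 0.00567 to 1.35% (8.73 ± 0.48), with M-CSF values of 5233, 1479 and 1097 and a change of 9.41 without M-CSF number 1. Prdx1, a peroxiredoxin, had 69094, 105193 and 88146 with M-CSF alone and 507794, 640607 and 599766 with IFNg/LPS (2.75 ± 0.18), and Saa3 437, 408 and 464 with M-CSF alone and 569019, 279090.1 and 352406 with IFNg/LPS (9.77 ± 0.90). Among the transcripts that gave up reads, Lpl, lipoprotein lipase, had 361528, 442477 and 405075 with M-CSF alone and 31501, 53659 and 46459 with IFNg/LPS (-3.23 ± 0.25), Sepp1, the selenium carrier selenoprotein P, 165955, 241045 and 256046 with M-CSF alone and 17214, 21741 and 17529.9 with IFNg/LPS (-3.54 ± 0.30), and Apoe 319182, 362737 and 447333 with M-CSF alone and 67836, 151001 and 157289 with IFNg/LPS (-1.67 ± 0.33). The lysosomal proteases Ctsb and Ctsd changed by -0.40 ± 0.13 and -1.02 ± 0.17, and the lysozyme gene Lyz2 by -0.99 ± 0.12. Psap, the saposin precursor, had a level change of 0.10 ± 0.15 that did not pass the test (adjusted p = 0.539) and turned to -0.41 under total-read scaling.

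ISG15 is a ubiquitin-like protein that interferon induces, TRIM proteins are E3 ligases of which several restrict viruses, and Schlafen genes form an interferon-inducible family in mice. All 24 members tested were called higher, 19 of them at least 4-fold, with a median of 2.84. Isg15 itself had 1171, 356 and 296 with M-CSF alone and 94927, 79579 and 80113 with IFNg/LPS, a change of 7.41 ± 0.38 (limma adjusted p = 9.82e-11). Usp18, the protease that removes ISG15 from its targets, rose by 6.71 ± 0.49, and the conjugation enzymes Uba7, Ube2l6 and Herc6 by 2.21, 2.52 and 4.60. Slfn1 had 273, 53.3 and 52 with M-CSF alone and 17422, 16308 and 19641 with IFNg/LPS (7.59 ± 0.63), Slfn4 766, 418 and 428 with M-CSF alone and 66739, 44898 and 47100.2 with IFNg/LPS (6.66 ± 0.25) and Slfn2 19324, 10777 and 11585 with M-CSF alone and 92560.5, 95289 and 89089.8 with IFNg/LPS (2.78 ± 0.16). The smallest increases were those of Trim14 at 1.01 and Trim26 at 1.22. Members outside the naming rule are named here after their values were seen. M-CSF number 1 was the highest control library for 23 of the 24, by a median of 0.66 on the log2 scale. Without it the list kept 24 calls with a median of 3.06, and the changes of Isg15, Usp18 and Slfn1 were 8.02, 7.42 and 8.37.

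The interferon-stimulated response element (ISRE) is the promoter motif that interferon-activated factors bind. RefSeq windows from 250 bases before to 50 after the gene start were available for 21 of the 24 genes, and its letters, taken as GAAA, any 2 bases and GAAA on either strand, occurred in 12 of the 21 (57.1%), against 3.49% of 27025 RefSeq windows. With the 250 bases before the start alone they occurred in 9. The 100 bases before the start are shown for 7 of these genes, whose matches lie there, and for Gbp2, an interferon-induced GTPase. These stretches were chosen because they carry the motif. They are printed 5′ to 3′ on the strand of the gene, from RefSeq for build GRCm38.p6, with the matches in capitals.
Isg15: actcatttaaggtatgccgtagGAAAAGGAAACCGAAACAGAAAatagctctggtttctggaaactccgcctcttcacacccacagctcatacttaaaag
Trim30a: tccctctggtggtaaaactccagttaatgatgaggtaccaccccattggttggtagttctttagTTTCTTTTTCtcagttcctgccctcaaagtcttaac
Trim30d: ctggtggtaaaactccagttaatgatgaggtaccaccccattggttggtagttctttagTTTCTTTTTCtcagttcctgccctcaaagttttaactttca
Trim12c: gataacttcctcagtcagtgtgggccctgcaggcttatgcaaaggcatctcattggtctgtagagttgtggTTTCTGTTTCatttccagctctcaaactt
Trim5: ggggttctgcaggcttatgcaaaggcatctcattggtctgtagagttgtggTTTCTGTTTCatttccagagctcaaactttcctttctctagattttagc
Slfn8: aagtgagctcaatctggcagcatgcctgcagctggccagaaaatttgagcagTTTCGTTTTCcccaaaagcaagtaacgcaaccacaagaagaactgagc
Slfn9: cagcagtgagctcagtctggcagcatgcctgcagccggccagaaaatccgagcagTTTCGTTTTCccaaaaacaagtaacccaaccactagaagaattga
Gbp2: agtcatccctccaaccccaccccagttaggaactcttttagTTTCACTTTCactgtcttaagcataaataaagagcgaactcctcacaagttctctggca
The windows are chr4:156200819-156200918 (minus strand) for Isg15, chr7:104465194-104465293 (minus) for Trim30a, chr7:104507850-104507949 (minus) for Trim30d, chr7:104353350-104353449 (minus) for Trim12c, chr7:104288107-104288206 (minus) for Trim5, chr11:83020811-83020910 (minus) for Slfn8, chr11:82991831-82991930 (minus) for Slfn9 and chr3:142620563-142620662 (plus) for Gbp2. Isg15 holds 3 overlapping matches, at positions -78 to -57 from the start, and each of the others holds 1. The stretches of Trim30a and Trim30d, of Trim12c and Trim5, and of Slfn8 and Slfn9 are nearly alike. The matches within each of these pairs are therefore not independent.

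The neighbouring Schlafen genes Slfn1 and Slfn4 have no match in the same stretch, which says only that these letters do not occur there.
Slfn1: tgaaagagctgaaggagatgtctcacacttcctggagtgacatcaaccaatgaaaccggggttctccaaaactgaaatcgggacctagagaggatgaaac
Slfn4: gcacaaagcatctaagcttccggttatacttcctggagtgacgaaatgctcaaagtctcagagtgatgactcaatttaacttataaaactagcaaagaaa
They lie at chr11:83116720-83116819 and chr11:83175086-83175185 on the plus strand. Of the 8 genes shown with a match, Trim12c, Trim5, Trim30d, Slfn9, Trim30a and Slfn8 rose by 1.26, 1.27, 3.46, 3.49, 3.50 and 3.50, and Isg15 and Gbp2 by 7.41 and 8.17. Trim30a had 7783, 4429 and 4149 with M-CSF alone and 66054, 55893 and 55899.9 with IFNg/LPS, and Slfn8 4396, 2321 and 2269 with M-CSF alone and 35268, 30643 and 31230.1 with IFNg/LPS. The 2 without one in this stretch, Slfn1 and Slfn4, rose by 7.59 and 6.66. Gbp2 had 2119.5, 1552 and 1362 with M-CSF alone and 536587, 476503 and 416539 with IFNg/LPS (8.17 ± 0.16, limma adjusted p = 1.68e-14). Reads of near-identical copies within these families may have been divided between them, since the sources do not say how such reads were counted.

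Innate receptors did not move as 1 block. Toll-like receptors bind microbial products at the surface or in endosomes, and their adaptors carry the signal to NF-kB and IRF factors. Of 23 genes of this list, 15 were called higher and 6 lower, with a median of 0.67. Tlr3, the endosomal sensor of double-stranded RNA, had 949, 723 and 777 with M-CSF alone and 5768, 5362 and 4845 with IFNg/LPS (2.71 ± 0.13, limma adjusted p = 5.3e-11), and Tlr9, which senses CpG DNA, 2604, 1599 and 1512 with M-CSF alone and 9038, 9566 and 8889.7 with IFNg/LPS (2.31 ± 0.17). Both rose in all 3 libraries above every control. Tlr8 fell, from 12549, 14279.5 and 14759.6 to 5451, 6047 and 5540.1 (-1.29 ± 0.14), and Tlr2, a receptor for bacterial lipopeptides, from 4612, 2248 and 2581 to 2049, 1745 and 2039 (-0.63 ± 0.20, adjusted p = 0.00977). The Tlr2 call was lost with the 6 libraries alone (adjusted p = 0.0634) and with numbers 2 and 3 alone (adjusted p = 0.0551). Tlr4 itself, named after its value was seen, had a change of -0.08 ± 0.13 that did not pass (adjusted p = 0.572). Irak3, an inhibitory kinase of the pathway, rose by 1.88 ± 0.23, and Irak1, an activating one, changed by -0.87 ± 0.10.

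Cytosolic sensors of nucleic acids rose almost without exception. They were called higher in 16 of 17 cases, 13 at least 4-fold, with a median of 3.06. Zbp1, a sensor of Z-form nucleic acid that can trigger necroptosis, had 1620.1, 518 and 503 with M-CSF alone and 20630.4, 20081 and 22242 with IFNg/LPS (4.80 ± 0.38, limma adjusted p = 1.44e-08). The HIN-200 genes Ifi205 and Mnda rose by 6.13 ± 0.31 and 4.42 ± 0.28. Mavs, the adaptor that the RNA sensors share, was the 1 member called lower, at 2495, 2354 and 2415 with M-CSF alone and 1420.2, 1791 and 1769 with IFNg/LPS (-0.55 ± 0.11). M-CSF number 1 exceeded the mean of the other control libraries by a median of 0.86 log2 over this list, and the list median without it was 3.42. 

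Most genes of inflammasomes, which activate caspase 1, and of lytic cell death were higher. In this list 16 of 19 were called higher and 3 lower, with a median of 1.88. Il1a had 89.9, 66.4 and 83.4 with M-CSF alone and 36306, 13054 and 15235 with IFNg/LPS (7.91 ± 0.38, limma adjusted p = 4.51e-11), Mlkl, the pore-forming effector of necroptosis, 829.7, 718 and 488 with M-CSF alone and 14481, 13623 and 13669 with IFNg/LPS (4.39 ± 0.14), and Casp4, the sensor caspase for cytosolic LPS, 1777, 1100 and 1155 with M-CSF alone and 22361, 18657 and 17833 with IFNg/LPS (3.89 ± 0.20). The members called lower were Pycard, the adaptor ASC, at -1.02 ± 0.22, Nek7, a kinase that NLRP3 needs, at -0.87 ± 0.08, and Nlrp1b at -1.46 ± 0.16. Pycard held 850.4, 1689 and 1704 with IFNg/LPS, where number 1 was the lowest library.

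Receptors and JAK-STAT components of the cytokine pathways were higher in most cases. The list counted 21 of 31 higher and 5 lower (median 0.81). Stat2, a signal transducer of the type I interferon receptor, had 6162, 3332 and 2978 with M-CSF alone and 67610.4, 53321 and 49729.7 with IFNg/LPS (3.84 ± 0.21). Il15ra, which presents interleukin 15 to neighbouring cells, had 163, 114 and 153 with M-CSF alone and 10989.9, 8338 and 8312 with IFNg/LPS (6.00 ± 0.15). Ifngr1, the ligand-binding chain of the IFNg receptor, moved the other way, from 13003, 11228 and 11995 to 2207, 2501 and 2724 (-2.29 ± 0.14, limma adjusted p = 7.82e-10), as did Il6st, the shared signalling chain gp130, at -1.97 ± 0.13, and Il27ra at -2.02 ± 0.32.

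Transcription factor families held members of both directions. Of 8 interferon regulatory factors 6 were called higher and 2 lower. Irf7 had 8764, 1570 and 1637 with M-CSF alone and 217271, 219351 and 217239.8 with IFNg/LPS (6.27 ± 0.61, or 7.09 without M-CSF number 1), Irf1 3385, 3609 and 3740 with M-CSF alone and 78764, 69835 and 69409 with IFNg/LPS (4.34 ± 0.20) and Irf5 rose by 1.47 ± 0.09. Irf4 changed by -2.05 ± 0.28. Irf3 was called lower with 1358, 1398 and 1439 with M-CSF alone and 1265, 1199 and 1194 with IFNg/LPS (-0.20 ± 0.08, limma adjusted p = 0.0399), and that call was lost without any 1 of the libraries other than IFNg/LPS number 1, with adjusted p of 0.0503 to 0.109. The AP-1, ATF and BATF list had 12 of 25 higher and 6 lower, and its median of 0.24 was -0.26 under total-read scaling. Batf2 rose by 5.67 ± 0.13, Batf by 3.60 ± 0.35 and Fosl1 by 4.97 ± 0.58, while Cebpa, a factor of the myeloid lineage, changed by -2.77 ± 0.32.

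Nuclear receptors and clock genes held changes in both directions. Of 25 nuclear receptor genes 10 were called higher and 8 lower (median 0.12, and -0.39 under total-read scaling). These counts were near the shares over all genes, 36.3% higher and 37.5% lower. Nr3c1, the glucocorticoid receptor, rose by 1.91 ± 0.12 and Rxra, the shared partner of many nuclear receptors, changed by -1.49 ± 0.13. Nr4a1, an orphan receptor, had 286, 433 and 516 with M-CSF alone and 176, 115 and 85.3 with IFNg/LPS (-1.73 ± 0.46). Circadian genes were split 5 higher to 8 lower of 16. The output factor Dbp had 877, 916 and 1077 with M-CSF alone and 81.2, 83.1 and 96.3 with IFNg/LPS (-3.44 ± 0.15, limma adjusted p = 1.39e-11), Per3 changed by -3.10 ± 0.15 and Npas2 by -4.02 ± 0.29. Nfil3, which opposes Dbp at shared sites, rose with 401, 487 and 464 with M-CSF alone and 3310, 2690 and 2465 with IFNg/LPS (2.64 ± 0.22), and the repressors Cry1 and Gm129 (Ciart in RefSeq) rose by 1.47 ± 0.10 and 2.52 ± 0.28. Only 1 time point was sampled, so these are levels at 24 h and not rhythms.

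Chromatin and RNA regulators followed the same mixed form. Of 38 histone methylation and acetylation enzymes, 21 were called higher and 10 lower (median 0.24, and -0.27 under total-read scaling). Setdb2, a methyltransferase known to be interferon-inducible, had 551, 443 and 385 with M-CSF alone and 4487, 3919 and 3296 with IFNg/LPS (3.09 ± 0.12), and Kdm6b, a demethylase of H3K27 that LPS induces, 751, 659 and 753 with M-CSF alone and 3339.5, 2293 and 2487 with IFNg/LPS (1.89 ± 0.17). Hdac11 and Kdm2b changed by -2.71 ± 0.26 and -2.09 ± 0.12. In the list of RNA decay and translation control, 13 of 20 were higher and 6 lower. Zfp36, which destabilises Tnf mRNA, rose with 5719, 6638 and 7264 with M-CSF alone and 32349.5, 27672 and 25740.5 with IFNg/LPS (2.13 ± 0.18), while its relatives Zfp36l1 and Zfp36l2 fell with 8269.6, 8933 and 8873 with M-CSF alone and 1326, 1441 and 1718 with IFNg/LPS (-2.55 ± 0.29) and 15997, 17455 and 19202 with M-CSF alone and 5625, 9007 and 7460.5 with IFNg/LPS (-1.28 ± 0.19). The adjusted p for these 3 genes was at most 2.1e-05 in limma. Tiparp, an ADP-ribosylating enzyme, and Zc3h12c, an endonuclease relative of regnase-1, rose by 3.48 ± 0.20 and 2.79 ± 0.16.

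Secreted signals showed the highest list median of all 45 lists. Of 31 interleukin and TNF family ligands 27 were called higher, 24 at least 4-fold, and 2 lower, with a median of 4.48, or 4.52 with genes at the floor set to their bound. Il6 had 0, 1.7 and 3.2 with M-CSF alone and 6663, 1154 and 1256 with IFNg/LPS (9.89 ± 0.77, limma adjusted p = 1.27e-08), and Il1b 207, 90.9 and 99.6 with M-CSF alone and 91812, 22987 and 30911 with IFNg/LPS (8.34 ± 0.57). The stimulated library number 1 held the most of both, and without it the changes were 9.07 and 7.74. The members called lower were Tnfsf13 (APRIL), at -2.20 ± 0.23, and Tnfsf13b (BAFF), at -0.73 ± 0.19, which both support B cells. Il12b, Tnf, Il27 and the interleukin 1 receptor antagonist Il1rn rose by 7.51, 4.70, 6.67 and 7.78, the last 3 named after their values were seen.

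**Figure D3:**
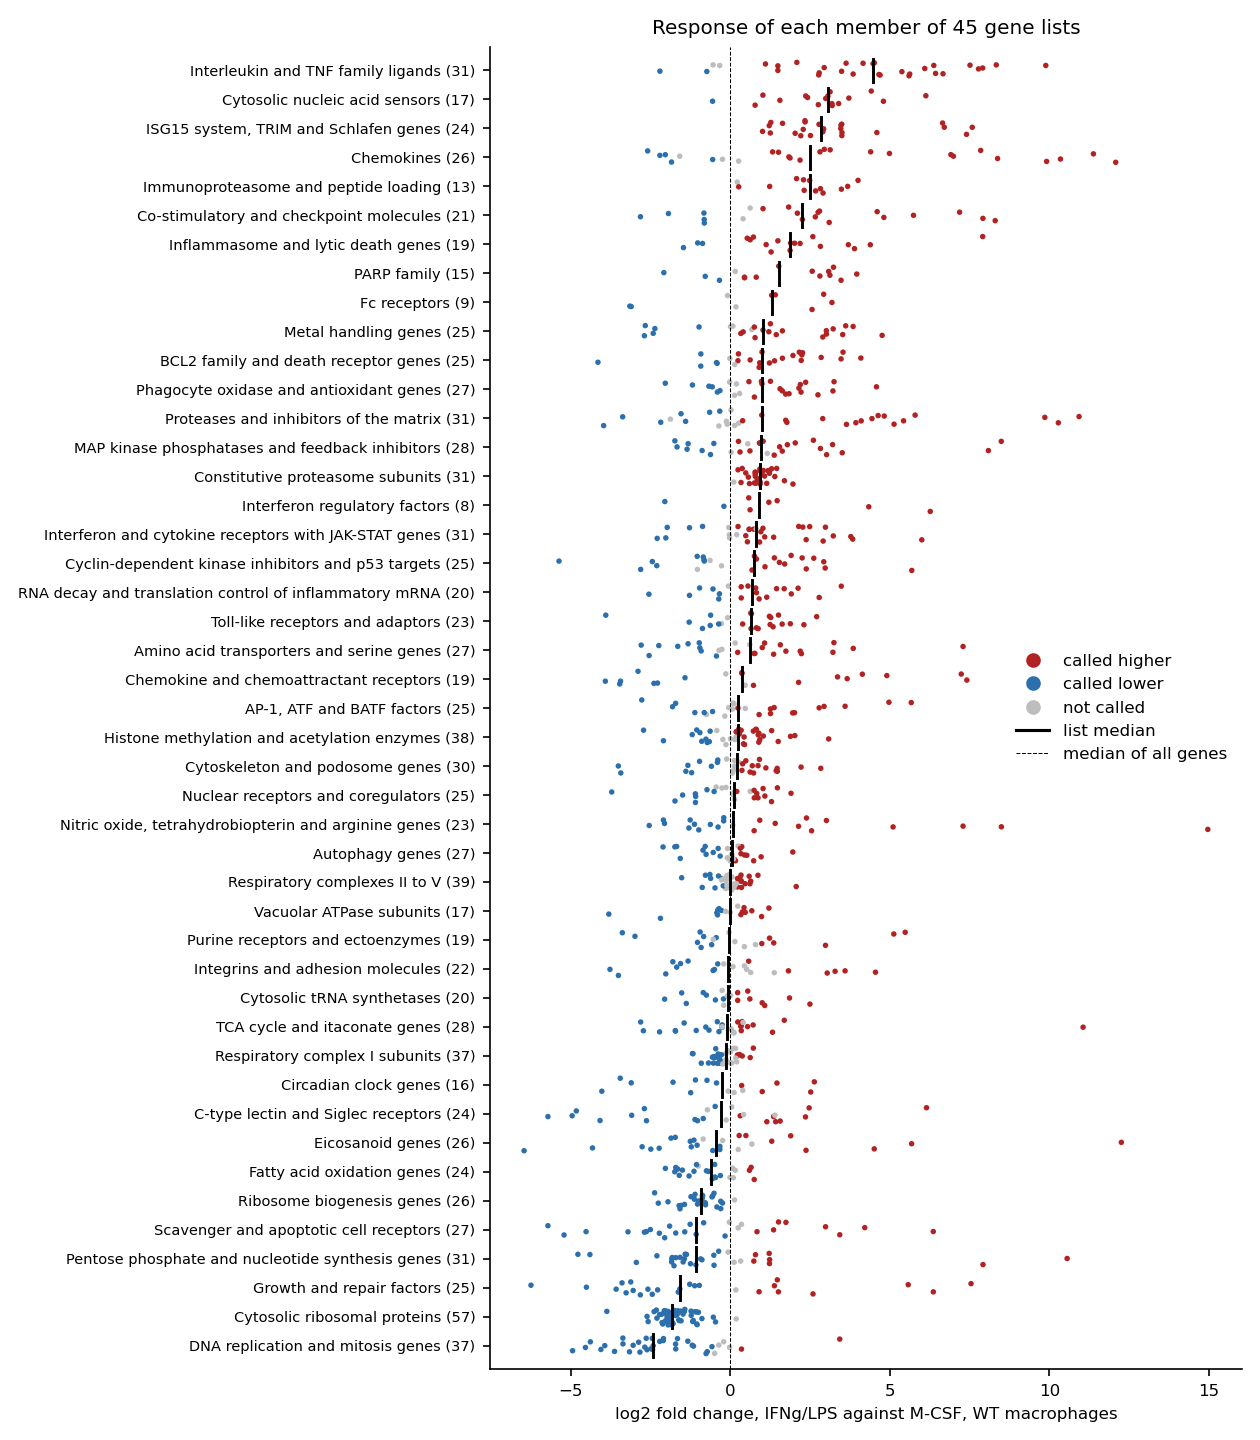
Log2 fold change (IFNg/LPS minus M-CSF, WT) of each tested member of 45 gene lists, ordered by list median, with the number tested in brackets, red for members called higher, blue for those called lower and grey for those not called. Medians (black bars) run from -2.41 for DNA replication and mitosis to 4.48 for interleukin and TNF ligands, and the dashed line is the median of all genes, -0.01.

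As the plot of list members shows, chemokine changes ranged from -2.59 to 12.08. Of 26 chemokines 18 were called higher and 5 lower (median 2.50). Ccl5 had 705, 234 and 287 with M-CSF alone and 541019, 439903 and 445095 with IFNg/LPS (10.35 ± 0.58, limma adjusted p = 2.62e-10). Ccl6 fell with 9922, 22901 and 19588 with M-CSF alone and 1489.6, 4386 and 3146 with IFNg/LPS (-2.59 ± 0.55), Pf4 by -2.20 ± 0.22 and Cx3cl1 by -2.03 ± 0.35. Growth and repair factors leaned the other way, with 8 of 25 higher and 16 lower (median -1.58), and 5 higher without IFNg/LPS number 3. Gas6, a bridge between dying cells and TAM receptors, had 16986, 16319 and 19243 with M-CSF alone and 469.5, 1008 and 959 with IFNg/LPS (-4.51 ± 0.31), Angptl4, an inhibitor of lipoprotein lipase, 353, 539.9 and 791 with M-CSF alone and 7.4, 4.7 and 6.3 with IFNg/LPS (-6.24 ± 0.34), and fibronectin (Fn1) 797, 1034 and 535 with M-CSF alone and 65, 81.2 and 47.4 with IFNg/LPS (-3.57 ± 0.48). The peptide hormone gene Adm rose from 3.8, 7.9 and 3.2 to 415, 274 and 171 (5.58 ± 0.50). Edn1, endothelin 1, had 11.5, 0.9 and 1.1 with M-CSF alone and 2054, 420.2 and 376 with IFNg/LPS (7.55 ± 0.80), with 8.43 without M-CSF number 1 and 6.76 without IFNg/LPS number 1.

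In the list of matrix proteases and inhibitors, 17 of 31 were called higher and 7 lower. Serpina3g, a protease inhibitor gene placed in this list, rose most. It had 44.6, 16.6 and 21.6 with M-CSF alone and 60738, 45858 and 48484 with IFNg/LPS (10.93 ± 0.39, limma adjusted p = 1.95e-12). Whether its product acts on matrix proteases was not tested. Mmp12, the macrophage elastase, had 72659, 165117 and 126366 with M-CSF alone and 19184, 34394 and 24902 with IFNg/LPS (-2.18 ± 0.29), and Timp2, an inhibitor of metalloproteases, 28260.4, 28191 and 30338 with M-CSF alone and 2129, 3382 and 3040.1 with IFNg/LPS (-3.37 ± 0.24). Both fell without overlap between groups. Adam19 changed by -3.97 ± 0.35.

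Genes of arginine uptake and use changed. Nos2, the inducible nitric oxide synthase, and Slc7a2, the arginine transporter that supplies it, rose together. Slc7a2 had 270.4, 394 and 433 with M-CSF alone and 73662, 44908 and 54632 with IFNg/LPS (7.30 ± 0.23, limma adjusted p = 4.84e-13), and Arg1 went from near absence to the levels given above. Within the list of nitric oxide, tetrahydrobiopterin and arginine genes 11 of 23 were called higher and 11 lower, and the median of 0.08 was -0.42 under total-read scaling. Srm, spermidine synthase, Qdpr, which recycles tetrahydrobiopterin, and Ddah2 changed by -2.54 ± 0.21, -2.09 ± 0.16 and -2.06 ± 0.28.

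Oxidant defence genes rose in most members. In the phagocyte oxidase and antioxidant list 17 of 27 were called higher and 6 lower (median 1.00). Sod2, the mitochondrial superoxide dismutase, had 2695, 1979 and 2266 with M-CSF alone and 60819, 47309 and 57909 with IFNg/LPS (4.58 ± 0.14), while the cytosolic Sod1 fell with 10252, 8612 and 9122 with M-CSF alone and 3259.8, 4032 and 5235 with IFNg/LPS (-1.18 ± 0.13). Slc7a11, the cystine importer for glutathione synthesis, rose by 3.22 ± 0.18 and Prdx5 by 3.25 ± 0.09, and Gpx3 changed by -2.03 ± 0.23. Catalase (Cat) had 27807, 18009 and 20570.4 with M-CSF alone and 12022, 13553 and 15802 with IFNg/LPS, called lower at -0.67 ± 0.25 (limma adjusted p = 0.023). That call was lost without M-CSF number 1 (adjusted p = 0.109), IFNg/LPS number 1 (0.0782) or IFNg/LPS number 2 (0.0509).

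Metal handling genes were called higher in 17 and lower in 5 of 25 cases (median 1.03). Hmox1, which frees iron from haem, had 17005, 19237 and 19107 with M-CSF alone and 274643, 259368 and 263934 with IFNg/LPS (3.85 ± 0.14, limma adjusted p = 3.37e-12), and Lcn2, which binds bacterial iron carriers, 1962, 575 and 765 with M-CSF alone and 19461, 6931 and 9809 with IFNg/LPS (3.53 ± 0.69). Among the 5 called lower were the transferrin receptor Tfrc with 10504, 11027 and 9490.1 with M-CSF alone and 1882, 1942 and 1989.9 with IFNg/LPS (-2.41 ± 0.15) and Steap3, the endosomal ferrireductase, with 4322, 3822 and 4083 with M-CSF alone and 449, 716 and 780.2 with IFNg/LPS (-2.69 ± 0.18). Cp, the ferroxidase ceruloplasmin, rose by 3.62 ± 0.35 and Slc39a8, a zinc and manganese importer, changed by -2.66 ± 0.15.

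Eicosanoid genes, which make and sense prostaglandins and leukotrienes, held large changes in both directions. Pla2g4a, which releases arachidonic acid, Ptgs2 and Ptges, the terminal synthase of prostaglandin E2, rose by 4.51 ± 0.12, 12.26 ± 0.51 and 5.68 ± 0.35. Hpgd, which degrades prostaglandins, had 908, 1513 and 1464 with M-CSF alone and 20.7, 10.3 and 11.1 with IFNg/LPS (-6.46 ± 0.28), the constitutive cyclooxygenase Ptgs1 512, 486 and 475 with M-CSF alone and 32.5, 21.5 and 19 with IFNg/LPS (-4.31 ± 0.20), and Ltc4s, of leukotriene C4 synthesis, changed by -2.76 ± 0.56. Over the list 8 of 26 were higher and 14 lower, with limma adjusted p of at most 0.000352 for these 6.

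PARP genes encode ADP-ribosyltransferases, several of them interferon-induced. In this family 11 of 15 were called higher and 3 lower (median 1.52). Parp14 had 18693, 8732 and 8449 with M-CSF alone and 146422, 87835 and 89969.5 with IFNg/LPS (3.24 ± 0.28), Parp10 1698, 1212 and 1220 with M-CSF alone and 23082, 20509 and 20269.9 with IFNg/LPS (3.97 ± 0.12) and Parp11 rose by 3.47 ± 0.16. Parp1, the nuclear enzyme of the DNA damage response, fell with 5984, 6371 and 6018 with M-CSF alone and 1330.2, 1515 and 1507 with IFNg/LPS (-2.08 ± 0.08, limma adjusted p = 3.33e-12), and Parp16 and Parp2 by -0.78 ± 0.09 and -0.34 ± 0.08.

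Genes for making and loading peptides on MHC class I rose together. Of the constitutive proteasome subunits 30 of 31 were called higher and none lower, with a median of 0.93. Under total-read scaling, 23 were called higher and 2 lower, with a median of 0.42. Psma5 had 3129, 3182 and 2969 with M-CSF alone and 10931, 11952 and 13544 with IFNg/LPS (1.97 ± 0.08), Psmd11 2055, 2056 and 2028 with M-CSF alone and 6474, 6556 and 6920.4 with IFNg/LPS (1.70 ± 0.07) and Psma3 rose by 1.46 ± 0.07. The immunoproteasome and peptide loading genes, which replace catalytic subunits and carry peptides to class I molecules, were higher in 12 and lower in 0 of 13 cases (median 2.49). Tap1 and Tap2, the peptide transporter, had 5082, 3044 and 3191 with M-CSF alone and 65476, 56604 and 55346 with IFNg/LPS (4.01 ± 0.16) and 3254, 2732 and 2882 with M-CSF alone and 36248, 31774 and 31269.6 with IFNg/LPS (3.49 ± 0.08, limma adjusted p = 3.42e-14), and Tapbpl rose by 3.68 ± 0.09. IFNg/LPS number 1 was the lowest stimulated library for 31 of 31 constitutive subunits.

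Co-stimulatory and checkpoint molecules, which activate or restrain T cells, were mostly higher. The list held 14 of 21 called higher and 5 lower (median 2.26). Cd40, the receptor for T cell help, had 337, 229 and 184 with M-CSF alone and 43832, 33998 and 29949 with IFNg/LPS (7.19 ± 0.23, limma adjusted p = 7.24e-13), and Slamf1 5.4, 13.1 and 7.6 with M-CSF alone and 4346, 1559 and 1619 with IFNg/LPS (7.92 ± 0.44, or 7.17 with libraries numbered 2 and 3 alone). Ido1, which depletes tryptophan, had 0.8, 0.9 and 0 with M-CSF alone and 785, 328 and 417 with IFNg/LPS. Sirpa, the receptor for the signal CD47, fell with 156766, 154496 and 154915 with M-CSF alone and 91527, 82092 and 90258 with IFNg/LPS (-0.82 ± 0.11), Cd200r1, an inhibitory receptor, by -1.93 ± 0.27, and 4632428N05Rik (Vsir in RefSeq, the checkpoint molecule VISTA) from 40334, 42379.8 and 47068 to 6298, 6197 and 5954 (-2.81 ± 0.16). Of 9 Fc receptors and related genes 5 were higher and 2 lower. The activating Fcgr4 and Fcgr1 rose by 3.19 ± 0.21 and 2.57 ± 0.23, and Trim21, a cytosolic antibody receptor, by 2.93 ± 0.12. Fcgrt, the neonatal receptor that recycles IgG, fell with 5885, 6516 and 7140 with M-CSF alone and 592, 814 and 895 with IFNg/LPS (-3.10 ± 0.27), and Fcrls changed by -3.14 ± 0.48, or -2.52 with libraries numbered 2 and 3 alone.

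Scavenger receptors were mostly lower and C-type lectins and Siglecs were split. Scavenger and apoptotic cell receptors were called higher in 8 and lower in 16 of 27 cases (median -1.06). Stab2, a hyaluronan receptor, had 241, 713 and 509 with M-CSF alone and 8.9, 15.9 and 9.5 with IFNg/LPS (-5.20 ± 0.43), and Cd163, the haemoglobin scavenger, 224, 515 and 359 with M-CSF alone and 20.7, 6.5 and 20.5 with IFNg/LPS (-4.52 ± 0.63). Marco, a bacterial scavenger receptor, rose with 454, 83.9 and 75.8 with M-CSF alone and 21690.4, 5996 and 12738 with IFNg/LPS (6.36 ± 0.86, limma adjusted p = 6.04e-06), or 7.20 without M-CSF number 1, which held the highest control value. Trem1, which amplifies inflammatory signals, and Olr1, an oxidised lipoprotein receptor, rose by 4.22 ± 0.69 and 3.43 ± 0.36. Of 24 C-type lectin and Siglec receptors 8 were higher and 11 lower. Clec4e (Mincle) had 1841, 513 and 744 with M-CSF alone and 65304, 60608 and 63990.5 with IFNg/LPS (6.15 ± 0.40), Clec4n (Dectin-2) rose by 2.36 ± 0.51, and Siglece by 2.47 ± 0.56, or 3.25 without M-CSF number 1. Clec10a and Clec1a changed by -4.08 ± 0.44 and -4.82 ± 0.40, and Mrc1, the mannose receptor that both lists hold, by -5.71 ± 0.21.

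Receptors that steer migration changed in opposite directions. Fpr1 and Fpr2, receptors for formylated bacterial peptides, had 154, 48.1 and 56.3 with M-CSF alone and 17334, 9180.1 and 13676 with IFNg/LPS (7.42 ± 0.65) and 167, 52.4 and 62.8 with M-CSF alone and 14137, 10104 and 13825 with IFNg/LPS (7.24 ± 0.44), and Gpr84, a fatty acid receptor, rose by 4.91 ± 0.45. Cxcr4, the receptor for CXCL12, had 11283, 8006 and 10713 with M-CSF alone and 569.9, 778 and 638 with IFNg/LPS (-3.91 ± 0.24, limma adjusted p = 7.95e-10), Gpr183, an oxysterol receptor, changed by -3.46 ± 0.27, and Ccr3 by -3.44 ± 0.47, or -2.73 without IFNg/LPS number 1. The list had 10 of 19 higher and 7 lower, and its median of 0.37 was -0.14 under total-read scaling. Among 22 integrins and adhesion molecules, 6 were higher and 10 lower, beside 36.3% and 37.5% of all genes. Icam1 had 4119.8, 3032 and 2604 with M-CSF alone and 40182, 39658 and 36419.6 with IFNg/LPS (3.60 ± 0.16), and Itgal, a subunit of its ligand LFA-1, rose by 3.29 ± 0.33. Itga6, Itgb5 and Itgb3 changed by -3.50 ± 0.11, -3.77 ± 0.16 and -2.02 ± 0.27. Purine receptors and ectoenzymes held 6 higher and 8 lower of 19, near the shares over all genes. Increases were 5.48 ± 0.24 for Adora2a and 2.99 ± 0.33 for Adora2b, the adenosine receptors that raise cAMP, and 5.13 ± 0.28 for Cd38, which consumes NAD. The ATP and ADP receptors P2rx7 and P2ry1 changed by -1.02 ± 0.11 and -3.38 ± 0.18, and Enpp1 by -2.98 ± 0.21.

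Lysosome acidification and autophagy genes had no common direction, and their counts were near the shares over all genes (36.3% higher, 37.5% lower). Of 17 vacuolar ATPase subunits 7 were higher and 7 lower. Atp6v0d2, an isoform high in osteoclasts and tissue macrophages, had 27122, 55042 and 53220.2 with M-CSF alone and 1574, 4619 and 4014 with IFNg/LPS (-3.80 ± 0.45), and Atp6v0a1 22312, 38319 and 33994 with M-CSF alone and 7286, 6967 and 6086 with IFNg/LPS (-2.19 ± 0.16), while its paralogue Atp6v0a2 rose with 2298, 2339.7 and 2414 with M-CSF alone and 5541, 5617 and 5208 with IFNg/LPS (1.21 ± 0.07, limma adjusted p = 2.62e-10). Of 27 autophagy genes 10 were higher and 10 lower. Sqstm1, the cargo receptor p62, had 29512, 23640.1 and 26547 with M-CSF alone and 99132, 103938 and 106277 with IFNg/LPS (1.96 ± 0.13), and Calcoco1, Gabarapl1 and Ulk2 changed by -2.10 ± 0.08, -1.73 ± 0.15 and -1.68 ± 0.09. Under total-read scaling, these lists had 2 higher and 9 lower, and 3 higher and 20 lower.

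Respiratory chain genes were split, most of them with small changes. Of 37 complex I subunits 6 were called higher and 16 lower, with a median of -0.13 and a range from -1.18 for Ndufb11 to 0.73 for Ndufs4. Without IFNg/LPS number 1, the lowest stimulated library for 37 of 37, the counts were 12 higher and 13 lower. Ndufb11 had 2519.7, 2447 and 2761 with M-CSF alone and 918, 1173 and 1352 with IFNg/LPS (-1.18 ± 0.10) and Ndufs8 changed by -1.17 ± 0.14. Ndufa11 was called higher at 0.38 ± 0.08, but had -0.13 under total-read scaling. Complexes II to V had 13 of 39 higher and 9 lower. Cycs, cytochrome c, had 2697, 2634 and 2459 with M-CSF alone and 10389, 10912 and 11394 with IFNg/LPS (2.07 ± 0.09, limma adjusted p = 1.94e-11) and Atp5g2, a subunit c gene of ATP synthase, 5361, 5569 and 5299.8 with M-CSF alone and 1302, 2010.2 and 2555 with IFNg/LPS (-1.52 ± 0.16). Under total-read scaling 0 of the complex I subunits were higher and 33 lower, and 2 and 30 of complexes II to V.

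In the list of tricarboxylic acid cycle and itaconate genes, Irg1 rose most and Idh1 and Idh2 fell most. Idh1, the cytosolic isocitrate dehydrogenase, had 13415, 17606 and 18576 with M-CSF alone and 1919, 2525 and 2652 with IFNg/LPS (-2.80 ± 0.14, limma adjusted p = 6.68e-11), the mitochondrial Idh2 2139, 2680.5 and 2455 with M-CSF alone and 259.8, 418 and 450.1 with IFNg/LPS (-2.72 ± 0.22), and Suclg2, of succinyl-CoA synthetase, changed by -2.21 ± 0.15. Irg1, which makes itaconate from a cycle intermediate, had 249.7, 150.3 and 159 with M-CSF alone and 471284, 366831 and 340423 with IFNg/LPS (11.06 ± 0.35), Pdk3, which restrains pyruvate entry, rose by 1.69 ± 0.08 and Pcx, pyruvate carboxylase, by 1.33 ± 0.17. Of 28 genes of the cycle and its branch 10 were called higher and 13 lower. Fatty acid oxidation genes were mostly lower, 16 of 24 with 3 higher (median -0.62), led by Hsd17b4 at -2.03 ± 0.08, Etfb at -1.74 ± 0.11 and Hadh at -1.71 ± 0.22.

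Nucleotide synthesis genes were mostly lower and amino acid genes mixed. In the pentose phosphate and nucleotide list 7 of 31 were higher and 21 lower (median -1.07). Cmpk2, a mitochondrial nucleotide kinase next to Rsad2 in the genome, had 2560.4, 1028 and 792 with M-CSF alone and 382088, 306796 and 254067 with IFNg/LPS (7.92 ± 0.33), and G6pdx, the first enzyme of the pentose phosphate pathway, 12893, 11728 and 11977 with M-CSF alone and 28135, 29612 and 28372 with IFNg/LPS (1.24 ± 0.10). The S phase genes Rrm2, of ribonucleotide reductase, and Tk1, thymidine kinase, changed by -4.77 ± 0.37 and -4.39 ± 0.32, and Prps2 by -2.94 ± 0.16. Of 27 amino acid transporter and serine genes 14 were higher and 9 lower. Slc7a8 had 4047, 3607 and 3694 with M-CSF alone and 41305, 33268 and 33858 with IFNg/LPS (3.25 ± 0.11), and Glul, glutamine synthetase, fell with 20624, 19285 and 19844 with M-CSF alone and 2489, 3080.3 and 3114 with IFNg/LPS (-2.79 ± 0.09, limma adjusted p = 9.11e-13). Slc6a9 rose by 3.86 ± 0.62, or 4.50 without M-CSF number 1, and Slc1a5 and Slc1a3 changed by -2.24 ± 0.16 and -2.54 ± 0.53.

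Genes of the ribosome and its assembly were lower, while transfer RNA synthetases were split. Of 57 cytosolic ribosomal protein genes 56 were called lower, 15 of them at least 4-fold, and none higher, with a median of -1.83. Rpl10a had 11524, 13968 and 13521 with M-CSF alone and 539, 1106 and 1178 with IFNg/LPS (-3.86 ± 0.23), Rpl3 16012, 16898 and 16545 with M-CSF alone and 2055, 3140 and 3079.6 with IFNg/LPS (-2.60 ± 0.16) and Rps18 14197, 14976 and 14901 with M-CSF alone and 1442, 2895 and 3609 with IFNg/LPS (-2.57 ± 0.25, limma adjusted p = 1.59e-07). IFNg/LPS number 1 was the lowest stimulated library for 57 of 57, by a median of -0.83 log2 against the other stimulated libraries. Without it 56 were lower and 1 higher, with a median of -1.54, and with libraries numbered 2 and 3 alone the median was -1.59. The 1 gene not called in the full fit was Rps24, at 0.19, named after its value was seen. Ribosomal protein genes have many processed copies in the genome, and the sources do not say how their reads were assigned. Of 26 ribosome biogenesis genes 25 were lower and none higher (median -0.92), among them Wdr12 at -2.37 ± 0.24, Utp20 at -2.25 ± 0.19 and Polr1b, of RNA polymerase I, at -1.95 ± 0.15. Transfer RNA synthetases were split 8 higher and 7 lower of 20, near the shares over all genes. Wars, which charges tryptophan and is known as an IFNg-induced gene, had 1594, 1878 and 1704 with M-CSF alone and 9140, 10400.4 and 9705 with IFNg/LPS (2.50 ± 0.09), Aars rose by 1.86 ± 0.12, and Vars, Farsb and Iars changed by -2.05 ± 0.17, -1.52 ± 0.13 and -1.38 ± 0.11.

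Division genes fell while a G1 cyclin rose. Of 37 DNA replication and mitosis genes 31 were called lower, 22 at least 4-fold, and 2 higher (median -2.41). Ccnb2, a mitotic cyclin, had 944, 834 and 459 with M-CSF alone and 19.2, 28 and 20.5 with IFNg/LPS (-4.94 ± 0.29), and Cdc20, an activator of the anaphase ligase, 589, 529.5 and 279 with M-CSF alone and 17.7, 18.7 and 25.3 with IFNg/LPS (-4.38 ± 0.31). Ccnb1 changed by -4.54 ± 0.45, or -3.90 without IFNg/LPS number 1. Ccne1, cyclin E1, rose with 222, 299.7 and 160.2 with M-CSF alone and 2693, 2329.6 and 2168 with IFNg/LPS (3.43 ± 0.23, limma adjusted p = 1.71e-09). Rfc3 was the other member called higher, with 487, 580.1 and 461 with M-CSF alone and 542, 713 and 704 with IFNg/LPS (0.35 ± 0.13, adjusted p = 0.027). Its groups overlapped, the call was lost with the 6 libraries alone (adjusted p = 0.062) and without M-CSF number 1 or 3 or IFNg/LPS number 2 or 3 (0.0732 to 0.105), and its value was -0.15 under total-read scaling.

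Cell cycle inhibitors, p53 targets and death genes rose in most members. Of 25 inhibitor and p53 target genes 14 were higher and 8 lower (median 0.76), or 11 and 11 under total-read scaling. The list also holds Ccnd2, cyclin D2, which is a G1 cyclin and not an inhibitor. Ccnd2 had 228, 161 and 139.6 with M-CSF alone and 14013, 7059.7 and 7254 with IFNg/LPS (5.69 ± 0.37), and Mdm2, the p53 ligase, 6172, 5113 and 5248 with M-CSF alone and 46336, 42629 and 37269 with IFNg/LPS (2.93 ± 0.10). Gadd45g rose and Gadd45a fell, by 2.98 ± 0.42 and -2.44 ± 0.27, and Cdkn2c changed by -2.81 ± 0.22. Of 25 BCL2 family and death receptor genes 18 were higher and 5 lower (median 1.00). Cflar, which blocks caspase 8, had 4853, 4182 and 4256 with M-CSF alone and 58686, 45835 and 44123 with IFNg/LPS (3.47 ± 0.09, limma adjusted p = 1.17e-13), Bnip3 1387, 1428 and 1475 with M-CSF alone and 37375, 21238 and 18397 with IFNg/LPS (4.09 ± 0.24) and the death receptor Fas rose by 3.54 ± 0.23. Bmf, a pro-apoptotic BH3 protein, had 2083, 1409 and 1553 with M-CSF alone and 72.3, 96.2 and 115 with IFNg/LPS (-4.14 ± 0.21), and Bcl2 and Bcl2l11 changed by -0.92 ± 0.15 and -0.92 ± 0.28.

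Feedback inhibitors were mostly higher. Socs3 had 101, 74.3 and 84.4 with M-CSF alone and 44596, 26640.2 and 25808 with IFNg/LPS (8.49 ± 0.45) and Socs1 70.7, 34.9 and 32.5 with M-CSF alone and 14275, 10627 and 11524 with IFNg/LPS (8.09 ± 0.34, limma adjusted p = 1.16e-11), both inhibitors of JAK signalling, and Cish rose by 3.51 ± 0.27. Socs5, Dusp3 and Dusp7 changed by -1.35 ± 0.11, -1.66 ± 0.09 and -1.73 ± 0.12. Of 28 phosphatase and feedback genes 18 were higher and 7 lower (median 0.98). Cytoskeleton and podosome genes were split 14 higher and 9 lower of 30, with a median of 0.20 that was -0.31 under total-read scaling. Rhou and Marcksl1 rose by 2.84 ± 0.19 and 2.22 ± 0.25. Sh3pxd2a, the podosome scaffold TKS5, had 1672, 1165 and 1212 with M-CSF alone and 103, 107 and 142 with IFNg/LPS (-3.50 ± 0.21), and Lmna and Gsn changed by -1.39 ± 0.17 and -1.33 ± 0.08. Fscn1, fascin, was called higher with 181, 109 and 132 with M-CSF alone and 596, 269.8 and 355 with IFNg/LPS (1.48 ± 0.58, adjusted p = 0.0317), a call lost without M-CSF number 2 or 3 or IFNg/LPS number 1 or 3, with adjusted p of 0.0553 to 0.12.

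Neighbouring genes often changed together. When the 14794 tested genes with a RefSeq position were put in chromosome order, 75 runs of at least 4 genes in a row were called at least 2-fold higher (17.4% of all genes were), holding 430 genes, and 55 runs were at least 2-fold lower (19.5%), holding 253. The longest run, of 16 genes on chromosome 1, consisted of Csprs and 15 LOC genes with a median change of 3.15. The sources do not say how reads that fit several genes were counted, and whether these entries share reads was not tested. Csprs rose by 6.08 ± 0.46, or 6.80 without M-CSF number 1. The next in length, also on chromosome 1, held 15 genes starting with Aim2 with a median of 4.08, among them the HIN-200 and pyrin domain sensors. Within it Pydc3 had 952, 146 and 157 with M-CSF alone and 43589, 30179 and 35764 with IFNg/LPS (7.01 ± 0.58), and Pydc4 rose by 6.58 ± 0.65. M-CSF number 1 was their highest control, and without it the changes were 7.89 and 7.47. Olfr433, an olfactory receptor gene, had no read with M-CSF and 57.6, 49.5 and 55.3 with IFNg/LPS. Aim2, a sensor of cytosolic DNA, had 1647, 1524 and 1590.2 with M-CSF alone and 5062, 4679 and 4302 with IFNg/LPS (1.56 ± 0.08).

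**Figure D4:**
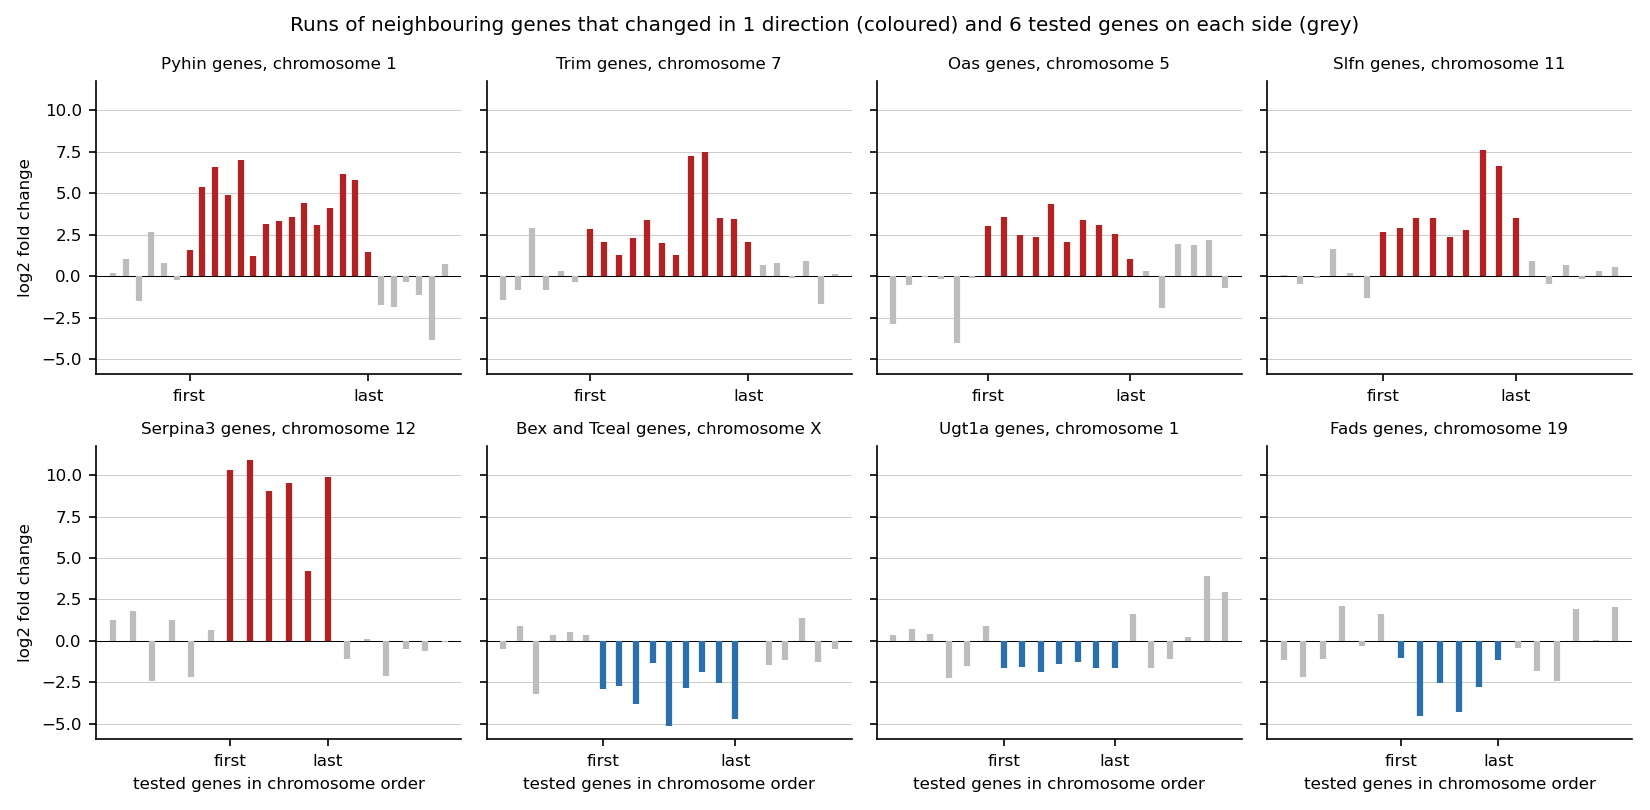
Log2 fold change (IFNg/LPS minus M-CSF, WT) of the genes in 8 runs of neighbouring genes, in chromosome order from the first to the last gene of the run, red for runs higher and blue for runs lower, with the 6 tested genes on each side in grey. Within a run every bar points the same way, which the definition of a run required. Among the 8 runs, which were picked by gene family and leave out the longest run, the Serpina3 genes on chromosome 12 have the tallest bars.

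Further runs that were higher held 13 genes around the H2-T class Ib genes on chromosome 17 (median 2.20), 12 genes from Trim6 to Olfr658 on chromosome 7 (2.57) and 12 genes around Sp110, Sp140 and Sp100 on chromosome 1 (3.14). H2-T22 had 2925, 2105 and 2052 with M-CSF alone and 40459, 38527 and 41966 with IFNg/LPS (4.11 ± 0.11), Sp110 2351, 1676 and 1744 with M-CSF alone and 14050.3, 14135 and 13741 with IFNg/LPS (2.88 ± 0.11) and Sp140 2013, 1401 and 1424 with M-CSF alone and 14104, 13188 and 11263 with IFNg/LPS (3.01 ± 0.13). The plot of the runs also shows 10 genes on chromosome 5, 9 of them Oas genes (2.77), 9 genes on chromosome 11, 8 of them Slfn genes (3.47), and 6 Serpina3 genes on chromosome 12 (9.69). Runs of 6 genes held Gbp genes on chromosome 5 (median 8.28) and Ifit genes on chromosome 19 (changes from 5.42 to 8.78).

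Runs that were lower were shorter. The longest held 9 genes on the X chromosome (median -2.85), 3 of the Bex and 3 of the Tceal family. Bex1 had 141, 324 and 324 with M-CSF alone and 7.4, 6.5 and 4.7 with IFNg/LPS (-5.12 ± 0.43), Wbp5 3900.1, 5141 and 5353 with M-CSF alone and 1137, 1347 and 1341 with IFNg/LPS (-1.90 ± 0.20) and Tceal1 109, 114 and 121 with M-CSF alone and 0, 7.5 and 9.5 with IFNg/LPS (-4.69 ± 0.60), the last with -3.61 without IFNg/LPS number 1 and -5.31 without number 3. The 7 Ugt1a genes on chromosome 1 (median -1.61) share exons, so their near-equal values, such as 889, 588 and 657 for Ugt1a9 and 916, 606 and 658 for Ugt1a2 with M-CSF, may count the same reads. The same holds for a run of 8 genes on the X chromosome, 7 of them Rps12 pseudogenes, with values such as 487, 541 and 508 for Rps12-ps12 and 531, 560 and 538 for Rps12-ps14. The 6 genes around Fads1, Fads2 and Fads3 on chromosome 19, the desaturases of polyunsaturated fatty acids, had a median of -2.66. A run on chromosome 4 held Gabbr2 with 76.1, 213 and 174 with M-CSF alone and 1.5, 0.9 and 3.2 with IFNg/LPS (-5.72 ± 0.38) and Tgfbr1, a TGF-beta receptor, with 16409, 14751 and 16298 with M-CSF alone and 4937, 4903 and 4717 with IFNg/LPS (-1.70 ± 0.12, limma adjusted p = 2.26e-09).

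Some abundant transcripts held their level on the deposited scaling. Intervals at 95% lay within 0.25 log2 of no change for 591 genes (3.78%). Lamp1, a lysosomal membrane protein, had 104505, 110419.7 and 113179 with M-CSF alone and 98503, 119717 and 110015 with IFNg/LPS (-0.00 ± 0.10), Iqgap1, an actin scaffold, 56899, 53618 and 57873 with M-CSF alone and 54917, 52529.7 and 50513 with IFNg/LPS (-0.09 ± 0.07), and the small GTPase Rac1 20455, 21053 and 20889.7 with M-CSF alone and 18906, 20202 and 19900.4 with IFNg/LPS (-0.08 ± 0.07). The groups of Lamp1 overlapped. Actr3, Zeb2, Grb2, Ddx5 and Atp5a1 also lay within that bound. Under total-read scaling Actr3, Ddx5, Zeb2 and Grb2 had changes of -0.46, -0.51, -0.47 and -0.43, so the steadiness of these genes is relative to the scaling.

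Other stimulated levels differed widely between the 3 libraries. The genes with the largest spread in IFNg/LPS, among those with a mean of at least 1000, included Il6 and Il1b, given above. Ccr7, a receptor that guides migration to lymph nodes, had 131, 108 and 135 with M-CSF alone and 3926, 1033 and 979 with IFNg/LPS (3.67 ± 0.56), or 3.01 without IFNg/LPS number 1. Mt2, a metallothionein, showed the opposite order, with 72.2, 315 and 276 with M-CSF alone and 428, 2028 and 3076 with IFNg/LPS (2.90 ± 0.89, limma adjusted p = 0.00792), or 2.23 without M-CSF number 1 and 3.75 without IFNg/LPS number 1. For Ccr7 the stimulated library number 1 was the highest, and for Mt2 it was the lowest. Ly6c2, a monocyte antigen, had 732, 89.1 and 110.4 with M-CSF alone and 3180, 1050.4 and 956 with IFNg/LPS (2.92 ± 0.80), or 3.88 without M-CSF number 1, and Fzd1, a Wnt receptor, 228, 392 and 369 with M-CSF alone and 3115, 895 and 1107 with IFNg/LPS (2.18 ± 0.43), or 1.39 with libraries numbered 2 and 3 alone.

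The same stimulus was given to p110g-/- macrophages, and that comparison shares no library with the WT one. Pik3cg, which encodes p110 gamma, had 5308, 5330.3 and 4994 with M-CSF alone and 3559.5, 2309 and 2604 with IFNg/LPS in WT (-0.91 ± 0.23, limma adjusted p = 0.00257). In the libraries labelled p110g-/- it had 1888, 2046 and 1966 with M-CSF, below every WT control, and 3691, 1410.5 and 2037 with IFNg/LPS, where number 1 was above every WT library with IFNg/LPS. The files do not give where in the gene these reads lie. Of the 11538 genes called in WT, 10074 (87.3%) were called in the same direction in p110g-/- cells, where 73% of all genes were called, 62 in the opposite direction, and 1402 were not called. Of the 2512 called at least 4-fold in WT, 2441 (97.2%) were called in the same direction and 1 in the opposite. Across the 15627 genes, which are not independent, the fold changes of the 2 genotypes had a Pearson correlation of 0.955. The test of the difference between the responses called 381 genes (2.44%), 159 with a higher and 222 with a lower response in p110g-/- cells. That count was 716 with the library number as a block, 869 with DESeq2, and 190 to 633 when 1 WT library was left out. It moved by over 1.5 times without M-CSF number 2 (190) or number 3 (206) and without IFNg/LPS number 1 (633) or number 2 (212).

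As the plot of both genotypes shows, the largest difference below the line was that of Cysltr2, a receptor for cysteinyl leukotrienes. It went from 69.1, 60.3 and 62.8 to 1764, 1048 and 936 in WT (4.21 ± 0.29) and from 10.3, 13.1 and 20 to 12.8, 7.6 and 15.6 in p110g-/- libraries, a difference of -4.46 ± 0.41 (limma adjusted p = 3.31e-05). Csrp1, a LIM domain protein, rose in WT from 5229.9, 3491 and 3738 to 11464, 13834 and 12666 and fell in p110g-/- from 4319, 4136 and 4255 to 1483, 2249 and 2153, a difference of -2.76 ± 0.22 (adjusted p = 7.3e-06). Both genes responded in every WT library above every WT control. Rgl1, a guanine nucleotide exchange factor for Ral, rose by 3.24 in WT and 1.07 in p110g-/-. H60a, a ligand of the receptor NKG2D with near-identical relatives, changed by 1.11 and -0.37, although its M-CSF level also differed, at 63, 63.8 and 61.7 in WT and 3752, 3452 and 3214 in p110g-/-.

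Other responses were larger in p110g-/- libraries. Ktn1, kinectin, went from 1381, 1439.8 and 1460.3 to 5237, 4231 and 3899 in WT and from 1456, 1548 and 1416 to 23841, 26132 and 18118 in p110g-/-, a difference of 2.30 ± 0.17 (limma adjusted p = 3.64e-06). Inpp4b, a phosphatase of phosphoinositides, fell in WT from 119.8, 41.1 and 44.4 to 23.6, 17.7 and 26.8 and rose in p110g-/- from 37.9, 17.5 and 31.4 to 227, 196 and 209.5, a difference of 4.28 ± 0.53 (adjusted p = 0.000696). Apbb3, Fam32a and Denr, which takes part in restarting translation, had differences of 1.85 ± 0.15, 1.09 ± 0.08 and 0.69 ± 0.08.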

How the data were processed

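RNA of the macrophages was sequenced, and the authors deposited 1 table for the whole series with a normalised signal per gene and library. Per the submitters' processing notes, CASAVA 1.8.2, Bowtie2, DESeq and mouse build mm9 were used. How reads were assigned to genes and whether strand was used are not given in the sources used here. The deposited signal is a whole read count divided by 1 factor per library. Whole reads were recovered for 100% of values within 0.1 of a whole number. No column came from another series (0 columns). The members of the comparison and all gene lists were chosen with earlier results of these data known.

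Values were tested as log2(signal + 1) with limma 3.58.1 (trend, robust; R 4.3.3), fitting the means of 6 groups over 18 libraries (12 residual degrees of freedom), with Benjamini-Hochberg adjustment over 15627 genes. All groups entered the fit so that they share 1 estimate of spread. edgeR 4.0.16 on recovered reads called 5594 genes higher and 5889 lower. Other alternatives were DESeq2 1.42.0, other factors, pseudocounts and filters, the library number as a block, and each of the 6 WT libraries of the comparison left out. For WT IFNg/LPS against WT M-CSF, tested on counts simulated for 14887 genes, the fit found 15 of 47 planted 1.5-fold changes, 39 of 48 at 2-fold, 47 of 48 at 4-fold and 50 of 50 at 8-fold, with 6 false calls. The simulation gave all genes the same spread beyond counting, changed only the planted genes and held no difference between library numbers. In the real comparison 73.8% of genes were called and number 1 stood apart, so these figures hold for the simulated setting only. Library numbers were taken as a pairing of the WT samples because their deviations correlated by more than 0.1 (0.256, 0.191 and 0.162 for numbers 1, 2 and 3). In p110g-/- the correlations were 0.169, 0.163 and 0.0284, the last under 0.1. The main fit held no block, so its SE and p-values leave any such pairing out. The labels give the numbers but no shared animal or day.

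Named genes are the 12 with the largest changes per direction, 10 per direction from or to at most 3 reads, 8 per direction with the largest change in share of reads, up to 3 per direction in each list, the 8 most abundant steady and the 8 most variable genes, 5 per direction by interaction, Pik3cg, and members of the 4 longest runs per direction. The 12 with the largest changes were chosen among called genes whose groups did not overlap. They also needed a mean of at least 50 in the higher group and more than 3 reads over the lower group. Not every gene under this rule is printed. Promoter windows come from RefSeq, build GRCm38.p6, which differs from the authors' build, so no coordinates were combined. Python 3.11.15, pandas 2.3.3 and matplotlib 3.10.9 made the tables and figures.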

Additional observations from a re-analysis of the deposited data

Results flagged for a closer look

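For 21 of 402 named genes, against 2.44% of all genes, the response to IFNg and LPS differed between p110g-/- and WT macrophages by the test of the difference (limma, adjusted p under 0.05 over all 15627 genes, in 3 libraries per group). Of the 21, 10 were named by their p for this difference (Cysltr2, Gm9199, Csrp1, Rgl1, H60a, Inpp4b, Ktn1, Apbb3, Fam32a and Denr), so their calls follow from the choice. The differences below are on the log2 scale, p110g-/- minus WT. Responses were lower in p110g-/- libraries for Cysltr2 (-4.46), Gm9199 (-3.69), Csrp1 (-2.76), Rgl1 (-2.17), Pparg (-2.11), H60a (-1.49), Nr1h3 (-0.809), Tlr8 (-0.806), Atp6v1b2 (-0.658), Actr3 (-0.56) and Grb2 (-0.396). They were higher for Inpp4b (4.28), Il12b (3.13), Ktn1 (2.3), Aspm (1.89), Apbb3 (1.85), Sh3pxd2a (1.24), Fam32a (1.09), Tfrc (0.838), Denr (0.685) and Parp1 (0.437). Gm9199 and Cysltr2 are neighbours on chromosome 14 among the tested genes, and whether they share reads was not tested. The cause was not tested.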

How the results depend on the processing

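Apart from scaling by total reads, no alternative reversed a called gene, and the counts ran from 5378 to 5795 higher and from 5541 to 6012 lower. The block on the library numbers gave 5795 and 6012, and it moved no WT count of calls by more than 1.5 times. Scaling by total reads, chosen after seeing the data, gave 3147 higher and 8923 lower, with 995 and 1938 at least 4-fold, and reversed 564 called genes. Named genes reversed under it were Psap (-0.41), Ndufa11 (-0.13), Rfc3 (-0.15), Actr3 (-0.46), Ddx5 (-0.51), Zeb2 (-0.47) and Grb2 (-0.43). The interaction count of 381 was 869 with DESeq2, 716 with the replicate block, 1708 with libraries numbered 2 and 3 only, and 190 to 633 leaving out 1 WT library. No p110g-/- library was left out on its own. The fit on the 6 libraries alone holds no p110g-/- library and gave no interaction count. For the fit with size factors of these 6 libraries, interaction calls were not counted. Runs of at least 3 genes numbered 171 higher and 175 lower. The cause was not tested. With 3 libraries per group, transcripts at a few reads in 1 group have levels limited by depth.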
